A study of Mus musculus with 12 samples.

Results

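The genes described here encode the subunits of the mitochondrial machinery of oxidative phosphorylation. Complexes I to IV form the respiratory chain of the inner membrane: complexes I and II feed electrons from NADH and succinate into the quinone pool, complex III passes them to cytochrome c, and complex IV passes them to oxygen. Complexes I, III and IV pump protons as electrons flow, and complex V, the ATP synthase, makes ATP as the protons return. Resting dendritic cells make much of their ATP in this way, and dendritic cells matured with lipopolysaccharide (LPS) are known for a shift towards glycolysis.

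A gene was taken when a probe set was annotated to it alone and its symbol began with Ndufa, Ndufb, Ndufc, Ndufs, Ndufv, Uqcr, Cox4, Cox5, Cox6, Cox7, Cox8 or Atp5, or was Sdha, Sdhb, Sdhc, Sdhd, Cyc1 or Cycs. The Ndufaf assembly factors and pseudogenes were left out, and the probe set with the highest mean signal stood for each gene. The rule found 84 genes among the 18193 genes with such a probe set, carried by 174 probe sets. They comprised 34 genes of complex I, 4 of complex II, 9 of complex III, 19 of complex IV, 17 of complex V and Cycs, which encodes cytochrome c. Of the 84 genes, 81 passed the filter on low signals and were tested among 12429 genes. Cox7b2, Cox8b and Ndufb4 did not pass it: their signals never exceeded 12.8, 18.6 and 20.7, below the median signal of every array, which lay between 21.4 and 41.8. Symbols are those of RefSeq where the gene identifier was found there and of the array annotation elsewhere, and several are older names.

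The data came from 12 cultures of mouse dendritic cells, each measured on 1 single-colour Affymetrix array. Bone marrow cells of mice aged 6 to 8 weeks were grown for 10 days in GM-CSF at 20 ng/ml. The series compared 3 retinoid states, namely no retinoid (control), all-trans-retinoic acid (RA, 10 nmol/ml) and Ro41-5253 (Ro, 100 nmol/ml), an antagonist of the retinoic acid receptor alpha, each without and with LPS at 1 ug/ml. The doses are those of the sample labels; the design text gives the amounts in nmol with no volume. Each of the 6 conditions had 1 culture from BALB/c mice (replicate 1) and 1 from BL6 mice (replicate 2). The retinoid and the antagonist were present from the start of culture, and the time of LPS exposure is not given in the sources used here. Marrow cultures in GM-CSF hold several cell types, no sort is described, and nothing says that the cultures of a strain came from separate animals, so each p-value reflects how these arrays scatter, which may be partly technical.

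Signals had been scaled by the authors, and array brightness differed with LPS: the median log2 change of all tested genes was -0.41 as deposited, -0.01 after quantile normalization and 0.25 with each array centred on its median. Changes are therefore given on the log2 scale after subtracting the median over the 12429 tested genes (the relative change), as deposited, ± the standard error of the fit. A gene is called when its own change passed an adjusted p of 0.05 in limma (Benjamini-Hochberg over all genes tested). "Fell" and "rose" are used only where the call held in the same direction at the deposited scaling and after quantile normalization, and the counts that lead each account also required it with the arrays centred on their medians. The summed signal of 13 dendritic cell markers ranged from 42392 to 75094 without LPS and from 44557 to 81958 with it, and none of the 13 was below the array median on all arrays. Of these markers 3 fell with LPS, among them Cd209a (-4.09 ± 0.40), and 3 rose, among them the costimulatory gene Cd86 (3.24 ± 0.22). All 9 tested granulocyte markers and all 9 tested dividing-cell markers fell with LPS; their summed signals, over 10 and 9 listed genes, were 11461 to 56188 and 5125 to 15827 without LPS and 428.1 to 5259 and 566.5 to 1655 with it. Of 9 macrophage markers, 5 fell and 1 rose (summed signal 45244 to 61932 without LPS, 11571 to 47593 with it). None of the 6 markers of T and NK cells passed the filter. In bulk samples, fewer cells of a type and less RNA per cell cannot be told apart, and the part of these cell types in the LPS results was not tested.

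Many promoters of these genes carry short sequences that are bound by the regulators of respiratory genes NRF1, GABP and YY1. In the RefSeq windows from 250 bases before to 50 bases after the gene start (mouse GRCm38.p6), 68 of the 84 genes were matched. The NRF1 core, written as GCGCA, any 1 base and GCGC, was present on either strand in 15 of the 68 genes (22.1%), beside 5.19% of 27025 genes with such windows. The same core with T as the open base was present in 4 of 68 (5.88%, beside 1.07%). The ETS core CCGGAAG bound by GABP was present in 17 (25.0%, beside 9.93%) and the YY1 sequence AAGATGGC in 9 (13.2%, beside 3.19%). The stretches below, all upstream of the start and read 5′ to 3′ on the strand of the gene, show these sites in genes chosen among those with a match. Ndufa5, Ndufa8, Uqcr11 and Ndufb7 fell with LPS, and Atp5j was lower in BALB/c. Sdha, not called under all 3 scalings for LPS or strain, holds 3 NRF1 matches in 1 window. Capitals mark the match to a searched motif. Ndufa5 has more than 1 annotated start, and its stretch runs from 210 to 161 bases before one of them.
Ndufa5, chr6:24527687-24527736, minus strand, NRF1: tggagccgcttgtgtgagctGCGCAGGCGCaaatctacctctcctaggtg
Ndufa8, chr2:36049339-36049388, minus strand, NRF1: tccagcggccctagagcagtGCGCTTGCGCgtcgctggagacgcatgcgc
Sdha, chr13:74350241-74350358, minus strand, NRF1: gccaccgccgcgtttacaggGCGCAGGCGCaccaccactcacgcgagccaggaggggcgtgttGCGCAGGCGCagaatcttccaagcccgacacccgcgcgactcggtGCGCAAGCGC
Uqcr11, chr10:80406861-80406907, minus strand, ETS: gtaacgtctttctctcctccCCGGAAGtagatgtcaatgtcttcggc
Ndufb7, chr8:83566718-83566757, plus strand, ETS: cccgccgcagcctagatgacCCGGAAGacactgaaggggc
Atp5j, chr16:84835011-84835084, minus strand, YY1 and ETS: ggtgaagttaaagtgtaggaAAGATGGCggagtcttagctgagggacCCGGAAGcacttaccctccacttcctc

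The other motifs searched were present in few windows. The sequence TCAAGGTCA, bound by the estrogen-related receptors, was present in 2 of 68 genes (2.94%, beside 0.466% of all), TGACGTCA of the cAMP response element in 4 (5.88%, beside 2.03%), CACGTG in 6 (8.82%, beside 8.09%) and GGG, any 2 bases and TTTCC, a form of the NF-kappaB site, in 1 (1.47%, beside 1.89%). Among the 17 matched genes that fell with LPS under all 3 scalings, 2 held the NRF1 core, 3 held CCGGAAG, 2 held AAGATGGC, 2 held TGACGTCA and 3 held CACGTG. Among the 48 other tested and matched genes, 12, 14, 7, 2 and 3 held them. TCAAGGTCA and the NF-kappaB form were in none of the 17, and in 2 and 1 of the 48. A match describes the letters of the window and not binding.

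The first comparison asked how the subunit genes differed between cultures with and without LPS, averaged over the retinoid states and strains. Under all 3 scalings, 19 of the 81 genes fell (23.5%) and 2 rose (2.47%), beside 19.8% of all tested genes lower and 11% higher. Of the 19 genes, 13 belonged to complex I, 1 to complex II, 1 to complex III, 2 to complex IV and 2 to complex V. Ndufs1 and Ndufa5 of complex I, Uqcr11 of complex III, Sdhc of complex II, Ndufa4 of complex IV and Atp5g1 of complex V were among them, while Atp5md of complex V and Cox6a2 of complex IV rose. The share of subunit genes that fell lay near the share of all genes under this rule, and it depended on the scaling. At the deposited scaling 63 genes were lower (77.8%, beside 47.9%) and 2 higher (2.47%, beside 11%). After quantile normalization 56 were lower (69.1%, beside 29%) and 7 higher (8.64%, beside 24.2%). With arrays centred on their medians 19 were lower (23.5%, beside 19.9%) and 27 higher (33.3%, beside 38.8%). With arrays scaled to 1 trimmed mean 31 were lower (38.3%, beside 33.5%) and 5 higher (6.17%, beside 19.6%). Relative to the median gene, the median change of the 81 genes was -0.15 as deposited and -0.48 after quantile normalization, and 49 of 81 values lay below 0.

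**Figure D1:**
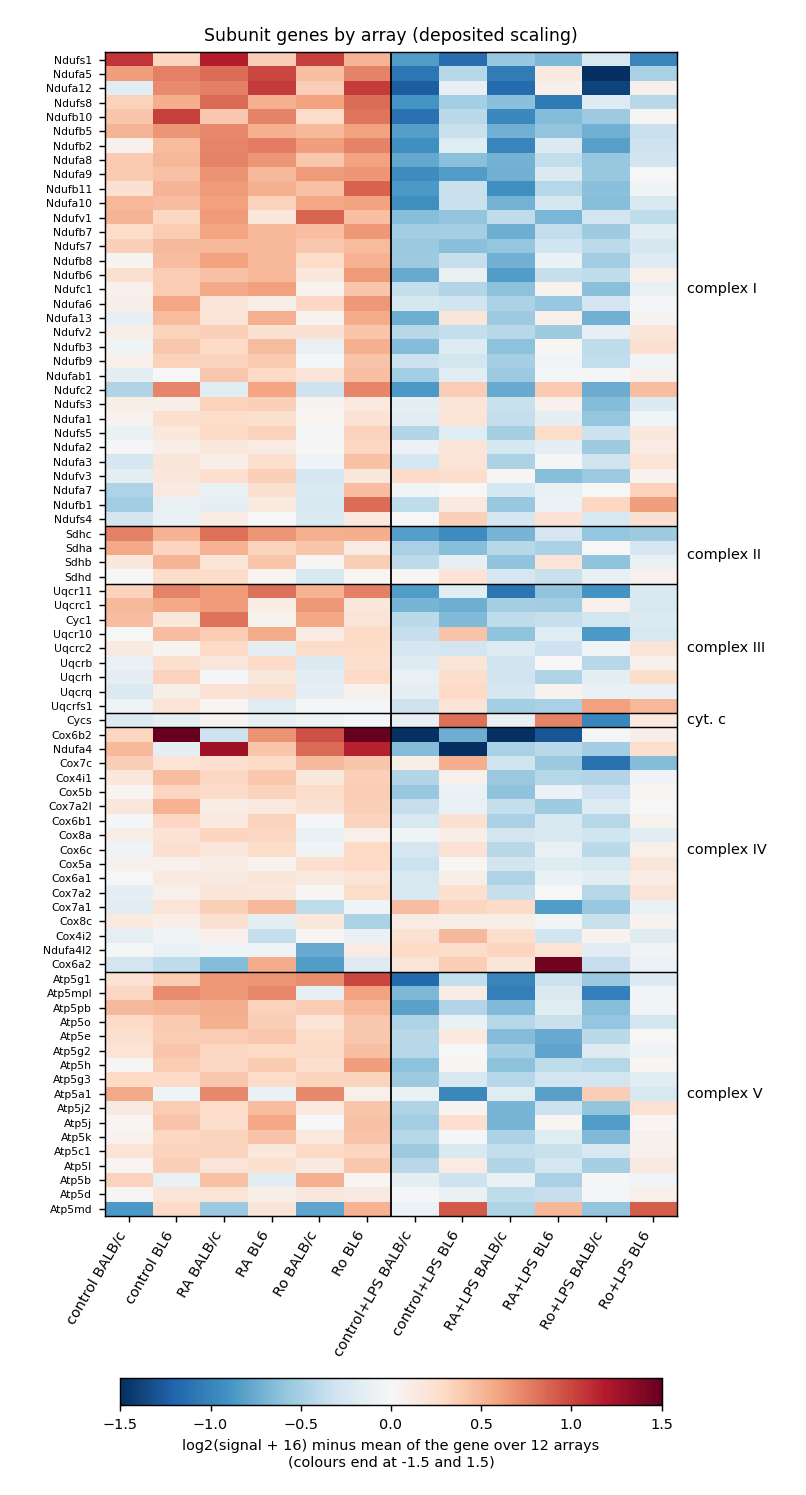
Signals of the 81 tested subunit genes (rows, grouped by complex and ordered by LPS change) on the 12 arrays (columns, labelled by condition and strain), as log2(signal + 16) minus the gene's mean over the 12 arrays at the deposited scaling. Red is above and blue below the gene's mean, and the vertical line separates arrays without LPS from those with it; the upper rows of complex I turn from red to blue, while Cycs, Atp5md and Cox6a2 do not.

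Complex I is the NADH dehydrogenase and the largest of the complexes. At the deposited and quantile scalings together, 23 of its 33 tested genes fell, 3 of 4 in complex II, 4 of 9 in complex III, 10 of 17 in complex IV and 16 of 17 in complex V, 56 of 81 in all (69.1%, beside 29% of all genes), and 2 rose (2.47%, beside 11%). Under all 3 scalings complex I held 13 of the 19 genes. Its 33 tested genes had a median relative change of -0.29 (range -1.07 for Ndufs1 to 0.52 for Ndufs4). Ndufs1, which carries iron-sulfur clusters of the NADH-oxidising arm, had signals of 572 to 1050.1 (median 799) on the 6 arrays without LPS and 197 to 382 (median 264) on the 6 with it. No array with LPS reached the lowest array without it, and the relative change was -1.07 ± 0.14 (adjusted p = 4.98e-06, limma). Ndufa5, an accessory subunit beside the quinone site, went from 801 to 1179 (median 985) down to 196 to 641 (median 342), a relative change of -1.06 ± 0.17, again with no overlap. Ndufa12, an accessory subunit of the peripheral arm, went from 1399 to 3258 (median 2613) down to 589 to 1646 (median 1064), a relative change of -0.84 ± 0.16. Here the ranges overlapped, since BL6 arrays with LPS reached the level of BALB/c control cells, but the gene was lower with LPS in 6 of 6 pairs matched for retinoid and strain.

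The conserved core subunits of complex I, which carry its electron transfer centres, were measured in 6 genes. Besides Ndufs1, Ndufs8, an iron-sulfur subunit of the quinone arm, fell from 2990 to 4239 (median 3516) to 1121 to 2054 (median 1587), with no overlap and a relative change of -0.82 ± 0.14. The other Ndufs8 probe sets above the filter gave -0.77, -0.70, -0.10, -0.65 and -0.32, from bright to dim. Ndufv1, which binds NADH and the flavin, fell from 1174 to 1926 (median 1468) to 646 to 858 (median 743), with no overlap and a relative change of -0.57 ± 0.12. Ndufs7, an iron-sulfur subunit next to the quinone, fell from 2343 to 2594 to 1176 to 1521, and its relative change of -0.49 ± 0.10 passed at the deposited scaling and after quantile normalization but not with arrays centred on their medians (adjusted p = 0.0625, limma). Ndufv2, another iron-sulfur subunit, had a relative change of -0.14 ± 0.11 and an absolute change whose sign turned with that scaling. Ndufs3 had a relative change of 0.05 ± 0.12, passing at the deposited scaling as lower but not after quantile normalization. The median relative change was -0.53 over the 6 core genes and -0.22 over the 27 accessory genes. Under all 3 scalings 3 of 6 and 10 of 27 fell, beside 19.8% of all genes. The difference between these groups was not tested.

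The remaining complex I genes that fell under all 3 scalings encode accessory subunits: Ndufb10 (-0.81 ± 0.14), Ndufb5 (-0.76 ± 0.11), Ndufb2 (-0.73 ± 0.14), Ndufa8 (-0.69 ± 0.11), Ndufa9 (-0.69 ± 0.13), Ndufb11 (-0.66 ± 0.11), Ndufa10 (-0.62 ± 0.13) and Ndufb7 (-0.53 ± 0.10). In each of these the 6 arrays with LPS lay below the 6 without it. How many of all tested genes separate in this way was not counted, here or for the other genes named. At this deposited scaling 47.9% of all tested genes were called lower. For Ndufb5, a membrane arm subunit, the signals were 2702 to 3196 (median 2877) without LPS and 1079 to 1528 (median 1223) with it. At the other end stood Ndufs4, a subunit needed for stable assembly of the NADH-oxidising module, with 1064 to 1431 (median 1258) without LPS and 1083 to 1664 (median 1399) with it. Its relative change was 0.52 ± 0.13, and its own change did not pass at the deposited scaling (adjusted p = 0.506, limma) but passed as higher after quantile normalization (adjusted p = 0.00753). Ndufb1 (0.42 ± 0.15) and Ndufa7 (0.39 ± 0.12) stood beside it, and neither passed at the deposited scaling.

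**Figure D2:**
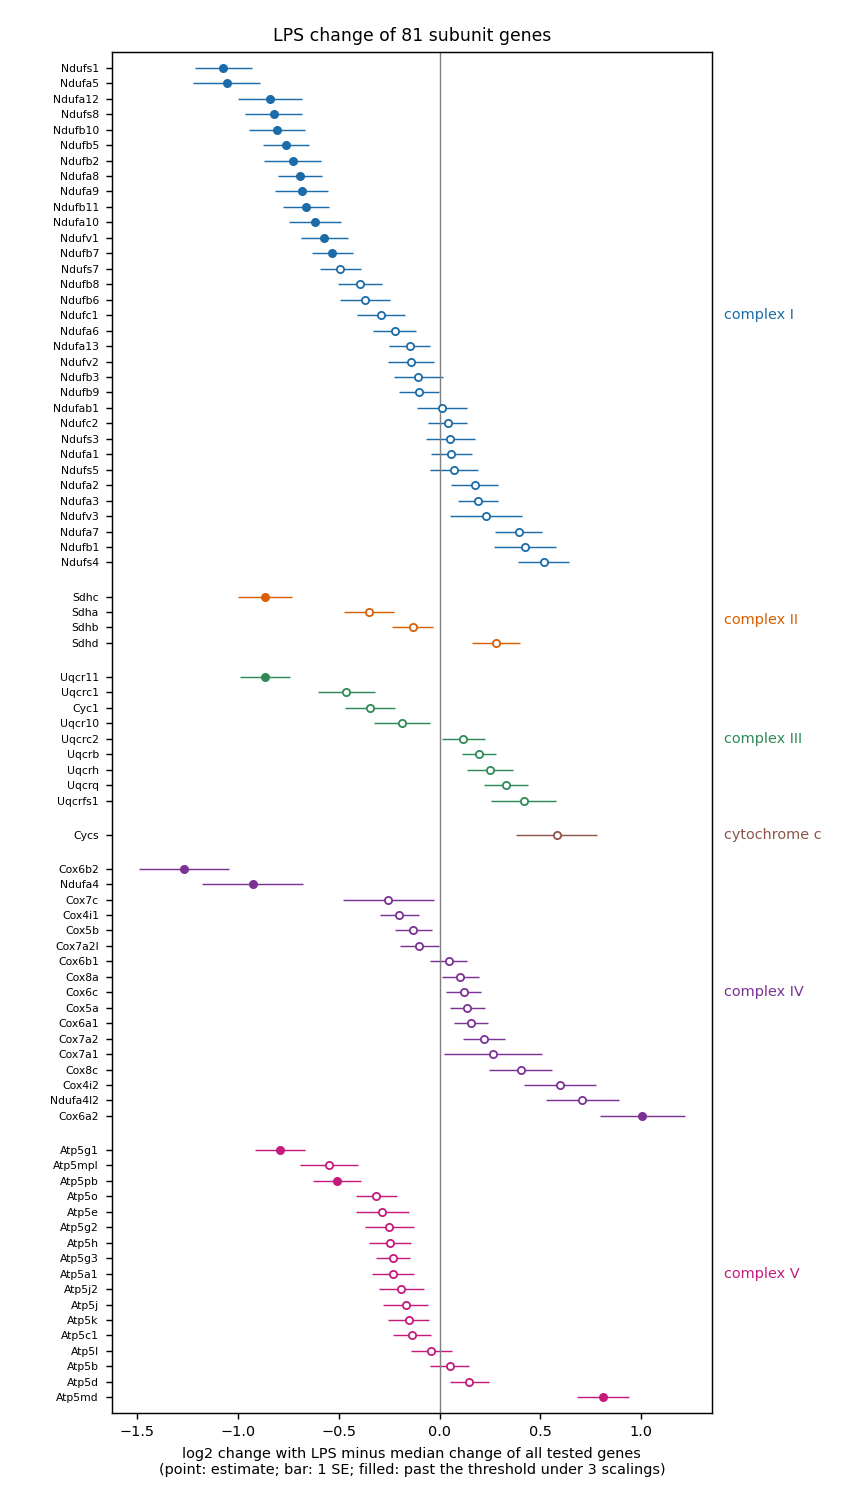
LPS change of the 81 tested subunit genes, as relative log2 change with deposited signals (horizontal axis; point, estimate; bar, 1 standard error), grouped by complex. Filled points passed the threshold under all 3 scalings: 19 genes on the left, led by Cox6b2 and Ndufs1, and Atp5md and Cox6a2 on the right.

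Complex II, succinate dehydrogenase, is also an enzyme of the tricarboxylic acid (TCA) cycle and has 4 nuclear subunits. Sdhc, a membrane anchor that takes part in quinone binding, fell from 1387 to 1709 (median 1467) without LPS to 493.1 to 804 (median 611) with it. The arrays did not overlap, and the relative change was -0.87 ± 0.13 (adjusted p = 8.6e-06, limma). Another Sdhc probe set of similar brightness (mean signals 1064 and 1028) gave -0.47. Sdha, the flavoprotein, fell from 1825 to 2488 to 1069 to 1674, with a relative change of -0.35 ± 0.12 that did not pass with arrays centred on their medians (adjusted p = 0.516, limma). Sdhb, the iron-sulfur subunit, went from 2818 to 3979 down to 1833 to 3193, with overlap and a relative change of -0.13 ± 0.10; its absolute change turned sign under that scaling. Sdhd, the other membrane anchor, lay at 2807 to 3992 without LPS and 2616 to 3795 with it (relative change 0.28 ± 0.12, adjusted p = 0.354 in limma). The 2 anchor genes therefore had values on opposite sides of the median gene.

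Complex III passes electrons from quinol to cytochrome c. Uqcr11, its smallest subunit, fell from 2394 to 3344 (median 3047) to 870 to 1665 (median 1136), with no overlap and a relative change of -0.87 ± 0.13 (adjusted p = 5.87e-06, limma). Uqcrc1, a core protein (-0.46 ± 0.14), and Cyc1, the cytochrome c1 (-0.34 ± 0.12), fell at the deposited and quantile scalings and did not pass with arrays centred on their medians. The Rieske iron-sulfur protein gene Uqcrfs1 had signals of 2822 to 3633 without LPS and 2212 to 4849 with it, and the 2 highest were both Ro with LPS. Its relative change was 0.42 ± 0.16, with an absolute change near 0 at the deposited scaling (adjusted p = 0.988, limma). The other core protein gene, Uqcrc2, had a relative change of 0.12 ± 0.11.

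Cycs encodes cytochrome c, the mobile carrier between complexes III and IV, which also takes part in apoptosis when released. Without LPS all 6 arrays lay between 3007 and 3569. With LPS the BL6 arrays held 6155 (control), 5834 (RA) and 3858 (Ro), while the BALB/c arrays held 3181, 3208 and 1748. The averaged relative change was 0.58 ± 0.20 and the change itself did not pass at the deposited scaling (adjusted p = 0.496, limma). It passed as higher with arrays centred on their medians (adjusted p = 0.00327, limma). Cycs had the smallest p of the members for a strain by LPS difference (relative value -0.75 ± 0.29, adjusted p = 0.286 in limma), which did not pass.

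Complex IV, cytochrome c oxidase, combines general subunits with tissue isoforms. Ndufa4, first assigned to complex I and now known as a subunit of complex IV, had signals of 2262 (BALB/c) and 1457 (BL6) in control cells and 1023 and 338 in control cells with LPS. With RA the values were 3904 and 2158 without LPS and 1145 and 1217 with it, and with Ro they were 2925 and 3615 without LPS and 1118 and 1919 with it. All 6 matched pairs were lower with LPS, and the lowest array was control with LPS in BL6. The relative change was -0.93 ± 0.25 (adjusted p = 0.000599, limma) and the call held under each scaling.

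The paralog of Ndufa4 annotated as AA467197 (also called Nmes1 or Coxfa4l3) lies outside the rule for the members and moved the other way. Its signals were 2573 and 4089 (BALB/c, BL6) in control cells and 7496 and 11349 in control cells with LPS. With RA they were 653 and 2201 without LPS and 2996 and 10125 with it, and with Ro 2256 and 2808 without and 5897 and 9063 with it. Every matched pair was higher with LPS, by 4.44-fold relative to the median gene (relative log2 change 2.15 ± 0.20, adjusted p = 2.08e-05, limma), and the call held under each scaling. The third paralog, Ndufa4l2, was near background, between 5.18 and 28.6 on all arrays, and its relative change of 0.71 ± 0.18 did not pass at the deposited scaling (adjusted p = 0.183, limma).

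Apart from Ndufa4, the general subunits of complex IV had relative changes between -0.26 (the dim Cox7c) and 0.22 (Cox7a2), while several tissue isoforms were close to background. Cox4i1, the general form of a regulatory subunit, fell from 7147 to 8863 to 4366 to 6733, with a relative change of -0.20 ± 0.10 and an absolute change of the opposite sign with arrays centred on their medians. Cox5b, which binds zinc (-0.13 ± 0.09), and Cox7a2l, a factor of respiratory supercomplexes (-0.10 ± 0.10), fell by the same 2 scalings. Over the 10 general subunits the median relative change was 0.07, with 8 of 10 lower at the deposited and quantile scalings, beside 29% of all genes and 69.1% of the subunit genes, and 1, Ndufa4, under all 3. Among the isoforms, Cox6b2, a form known from testis, went from 24.4 to 156 (median 73.0) without LPS to 0.873 to 37.7 (median 9.32) with it. That is a relative change of -1.27 ± 0.22, much of it near or below the array medians. Cox6a2, a form known from muscle, went from 31.3 to 109 (median 51.5) up to 50.8 to 216 (median 80.4), and the RA BL6 array with LPS was highest. Its relative change was 1.01 ± 0.21 (adjusted p = 0.0287, limma), and the call was lost without any 1 of the arrays RA BALB/c, control with LPS BALB/c, control BL6 or RA with LPS BL6. Cox4i2 (17.9 to 44.6), Cox7a1 (21.6 to 78.1), Cox8c (90.6 to 158) and Cox7c (26.3 to 117) were also dim on all arrays.

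**Figure D3:**
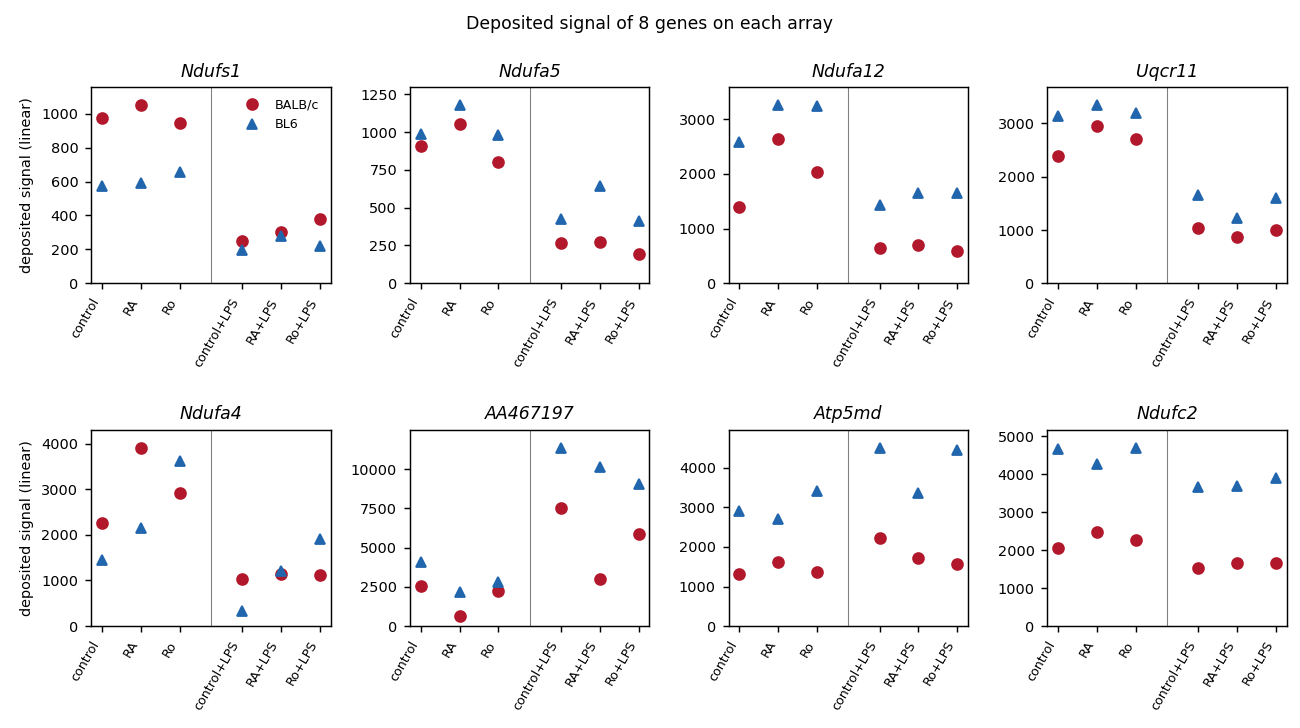
Deposited signal (linear scale, vertical axis) of 8 genes on each of the 12 arrays, by condition (horizontal axis) and strain (circles BALB/c, triangles BL6); the vertical line separates arrays without and with LPS. Ndufs1, Ndufa5, Ndufa12, Uqcr11 and Ndufa4 are lower with LPS in both strains, AA467197 and Atp5md are higher, and in Ndufc2 the BL6 arrays (3663 to 4688) lie above all BALB/c arrays (1540 to 2477).

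Complex V, the ATP synthase, joins the catalytic F1 head to a proton-driven ring. Atp5g1, 1 of 3 genes for the identical mature subunit of the c ring, fell from 2424 to 4182 (median 3279) without LPS to 920 to 1792 (median 1504) with it. The arrays did not overlap and the relative change was -0.79 ± 0.12 (adjusted p = 7.98e-06, limma). The other c ring genes had relative changes of -0.25 ± 0.12 (Atp5g2) and -0.23 ± 0.08 (Atp5g3); both fell at the deposited and quantile scalings and neither with arrays centred on their medians. Atp5pb, the peripheral stalk subunit b, fell from 5195 to 5999 (median 5764) to 2339 to 3978 (median 2821), a relative change of -0.51 ± 0.12. The catalytic beta subunit gene Atp5b lay at 4409 to 7132 without LPS and 3505 to 4860 with it, a relative change of 0.05 ± 0.10, with the absolute change lower at the deposited and quantile scalings and higher with arrays centred on their medians. The alpha subunit gene Atp5a1 had a relative change of -0.23 ± 0.10. Its other probe sets above the filter gave -0.81 and, in a dim one, -0.24. Atp5md, a small membrane subunit linked to ATP synthase dimers, ran the other way. It went from 1304 to 3412 (median 2165) up to 1575 to 4500 (median 2794), and the arrays without and with LPS overlapped. It was higher with LPS in 6 of 6 matched pairs, with a relative change of 0.81 ± 0.13 (adjusted p = 0.0191, limma), a call that was lost when control BALB/c, control with LPS BALB/c or control BL6 was left out. Atpif1, the inhibitor of the synthase and no subunit, had a relative change of -0.30 ± 0.12.

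Of the 19 genes that fell under all 3 scalings, 16 kept the call with each array left out in turn. Between 16 and 20 genes then passed, beside 17.7% to 19.7% of all genes. Atp5pb lost it without any 1 BALB/c array or control BL6. Ndufb7 lost it without RA, Ro or RA with LPS of BALB/c, or any 1 BL6 array except control with LPS. Ndufv1 lost it without RA, Ro or control with LPS of BALB/c, or any 1 BL6 array except control with LPS. Across the 81 genes the LPS change had a Pearson r of -0.006 and a Spearman rho of 0.28 with brightness. Genes are not independent replicates, and these values cover the subunit genes alone. The subunit genes were bright: on each array their median log2 signal lay 3.24 to 4.10 above the median of all tested genes. How far this brightness bears on the shares beside all genes was not tested. Where a gene had several probe sets above the filter (47 genes), 30 had the same sign of the relative change in all of them and 17 did not. For Cycs, the probe sets gave 0.58, 0.58 and -0.12. For Ndufa12 they gave -0.84, -0.82, -0.55 and, in a dim one, 1.23. For Ndufa5 they gave -1.06 and -1.01.

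The second question was whether the LPS difference varied with the retinoid state, with 2 arrays against 2 in each. Under all 3 scalings 6 subunit genes were lower with LPS in the cells without retinoid (7.41%, beside 14.6% of genes), 14 with RA (17.3%, beside 11.6%) and 6 with Ro (7.41%, beside 11.3%). Ndufs1 (-1.16 ± 0.25, -0.99 ± 0.25 and -1.04 ± 0.25 in the same order) and Ndufa5 (-0.92 ± 0.30, -0.98 ± 0.30 and -1.24 ± 0.30) passed in every retinoid state. The median relative changes of the 81 genes were 0.04, -0.29 and -0.13 as deposited, and the median changes after quantile normalization were -0.46, -0.49 and -0.41. At the deposited scaling alone the counts were 42 (51.9%, beside 37.7%), 57 (70.4%, beside 28.6%) and 36 (44.4%, beside 24%). The direct tests of the difference called no subunit gene: 0 of 81 for RA by LPS (5 at an unadjusted p under 0.05) and 0 of 81 for Ro by LPS (6 at that level), beside 0% of all genes in the first and 0.386% lower and 0.257% higher in the second. The smallest p for RA by LPS belonged to Cox6b1 (-0.58 ± 0.18), Atp5e (-0.78 ± 0.26), Uqcr10 (-0.81 ± 0.28) and Cox8a (-0.56 ± 0.18), all with an adjusted p of 0.845 in limma. For Ro by LPS they belonged to the dim Cox7c (-1.51 ± 0.42, adjusted p = 0.163 in limma), Uqcrfs1 (0.58 ± 0.27), Uqcrc1 (0.61 ± 0.28) and Sdha (0.48 ± 0.25). These comparisons share their control arrays. The counts at the deposited scaling (42 without retinoid, 57 with RA and 36 with Ro over all arrays) also leaned on single arrays. Without RA BALB/c the count in RA was 24. Without Ro BALB/c, Ro with LPS BALB/c or Ro BL6 the count in Ro was 12, 14 and 16. Without control BALB/c or control BL6 the count without retinoid was 25 and 27. The share of all genes was not counted with these arrays left out.

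The LPS difference was also fitted within each strain. In BALB/c 10 subunit genes were lower under all 3 scalings (12.3%, beside 15.5% of genes) and in BL6 9 (11.1%, beside 12.5%). A strain by LPS difference passed in 0 of 81 subunit genes (5 at an unadjusted p under 0.05), beside 0.105% of all genes lower and 0.00805% higher. After Cycs, the smallest p belonged to Ndufa5 (-0.52 ± 0.24, adjusted p = 0.313, limma), Ndufa10 (-0.32 ± 0.20) and Atp5pb (-0.26 ± 0.19).

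The third comparison set the 6 BALB/c arrays against the 6 BL6 arrays, across retinoid and LPS states. Each strain is also 1 replicate number, so strain and any difference in handling between the replicates cannot be told apart. Subunit genes were lower in BALB/c across the complexes: 22 of 81 passed under all 3 scalings (27.2%, beside 3.85% of all genes) and 1, Atp5a1, was higher (1.23%, beside 5.62%). The 22 comprised 9 genes of complex I, 1 of complex II, 2 of complex III, 3 of complex IV and 7 of complex V. The median relative difference of the 81 genes was -0.37, and 72 of 81 values lay below 0. The count was 23 at the deposited scaling (28.4%, beside 3.88%), 35 after quantile normalization (43.2%, beside 8.11%) 48 with arrays scaled to 1 trimmed mean (59.3%, beside 7.83%) and 50 with arrays centred on their medians (61.7%, beside 10.4%); under each of these scalings the share was larger than among all genes. The count under all 3 scalings moved with single arrays, from 9 without control BALB/c (beside 2.96% of all genes) to 27 without RA BALB/c (beside 3.3%). With each array left out in turn, 2.77% to 3.67% of all genes were lower. The count of subunit genes was 11 without Ro BALB/c, RA with LPS BALB/c, RA BL6 or control with LPS BL6. It was 12 without control with LPS BALB/c or Ro with LPS BL6, 13 without Ro BL6 and 14 without control BL6. Of the 9 macrophage markers, Mertk was lower in BALB/c (-1.79 ± 0.21, under all 3 scalings) and Cd14 higher (0.61 ± 0.15, at the deposited and quantile scalings), with a list median of -0.46. Of the 9 dividing-cell markers Aurkb was higher (0.67 ± 0.25, at those 2 scalings), and none of the 13 dendritic cell or 9 tested granulocyte markers passed. Without LPS the summed dividing-cell markers were 11084 to 15827 in BALB/c and 5125 to 14675 in BL6, and the macrophage markers 45244 to 61932 and 45861 to 60951. With LPS they were 566.5 to 1458 and 763.5 to 1655, and 11571 to 39226 and 14167 to 47593. The part of these cell types in the strain result was not tested.

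**Figure D4:**
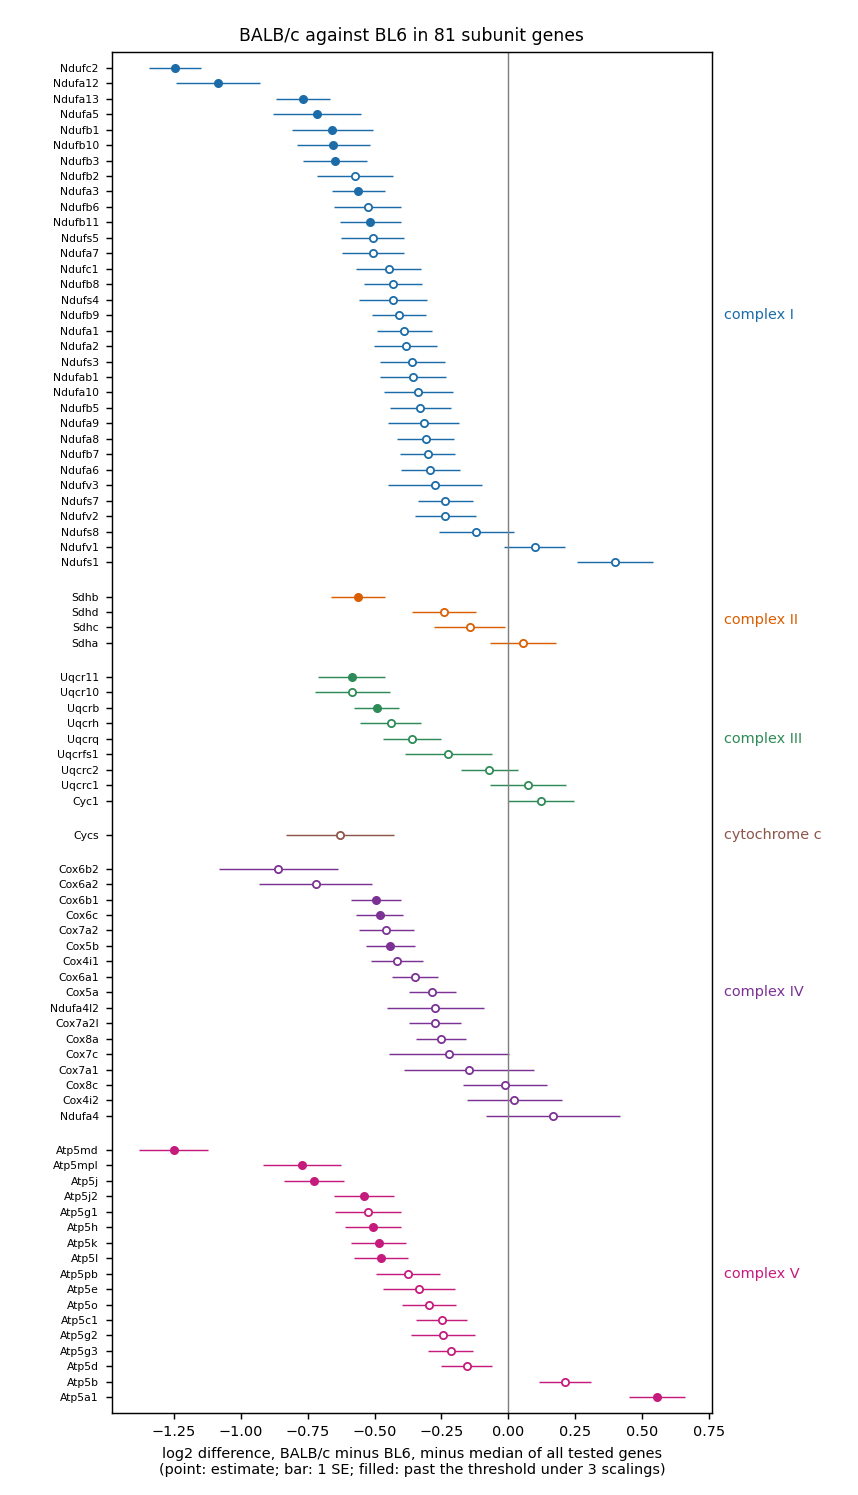
Difference between BALB/c and BL6 in the 81 tested subunit genes, as relative log2 difference (BALB/c minus BL6) with deposited signals (horizontal axis; point, estimate; bar, 1 standard error), grouped by complex. Filled points passed under all 3 scalings; 72 of 81 points lie left of 0, and Atp5a1 is the filled point on the right.

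At the probe set chosen for each gene, Ndufc2 and Atp5md were the subunit genes whose arrays did not overlap between strains. How many of all tested genes did not overlap between strains was not counted. Ndufc2, an accessory subunit of the membrane arm of complex I, had signals of 1540 to 2477 (median 1863) in BALB/c and 3663 to 4688 (median 4078) in BL6, a relative difference of -1.24 ± 0.10 (adjusted p = 3.46e-05, limma). Its other probe sets above the filter gave -0.62 and -0.71. Atp5md had 1304 to 2229 (median 1601) in BALB/c and 2704 to 4500 (median 3385) in BL6, a relative difference of -1.25 ± 0.13 (adjusted p = 0.000329, limma).

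Ndufa12 (-1.08 ± 0.16), Ndufa13 (-0.77 ± 0.10), also known as Grim19, and Ndufb3 (-0.65 ± 0.12) of complex I, Sdhb of complex II (-0.56 ± 0.10), and Atp5mpl (-0.77 ± 0.14) and Atp5j (-0.73 ± 0.11), a stalk subunit of complex V, were lower in BALB/c in each of the 6 pairs matched for condition. With Ndufc2 and Atp5md they were the 8 of the 22 genes that kept the call with every array left out. The other Ndufa12 probe sets above the filter gave smaller differences of -0.84, -0.40 and, in a dim one, -0.55. For Ndufa13 the signals were 1984 to 3800 (median 2641) in BALB/c and 3397 to 4853 (median 4157) in BL6, so the ranges overlapped. The 14 others, among them Ndufa5, Ndufb1, Uqcr11, Uqcrb, Cox6c, Cox5b and Atp5k, had relative differences between -0.72 (Ndufa5) and -0.44 (Cox5b).

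The values of core and accessory subunits of complex I overlapped, with core Ndufs3 at -0.36 and the highest accessory gene at -0.27. Under all 3 scalings none of the 6 core genes of complex I passed and 9 of 27 accessory genes were lower, beside 3.85% of all genes. For as few as 6 genes, no call lies near that share. The median relative differences were -0.18 and -0.45. Ndufs1 was at 0.40 ± 0.14 and higher in BALB/c in 6 of 6 pairs, a call made at the deposited scaling only. In complex V, 7 of 9 stalk and membrane genes were lower (median -0.51), beside the same 3.85% of all genes. The alpha subunit gene Atp5a1 was higher in BALB/c, with 3996 to 7468 (median 6286) against 2304 to 4768 (median 4027). Its relative difference was 0.56 ± 0.10 (adjusted p = 0.00158, limma), higher in 6 of 6 pairs. The other probe sets of Atp5a1 above the filter gave 0.23 and, in a dim one, -0.03. The beta subunit gene Atp5b (0.21 ± 0.10) passed as higher at the deposited and quantile scalings but not with arrays centred on their medians. The differences between these groups of genes were not tested. AA467197 was lower in BALB/c (-1.09 ± 0.20, adjusted p = 0.0101 in limma), in 6 of 6 pairs, and Atpif1 likewise (-0.61 ± 0.12, adjusted p = 0.0213). Of the 47 genes with several probe sets above the filter, 39 had the same sign in all of them.

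**Figure D5:**
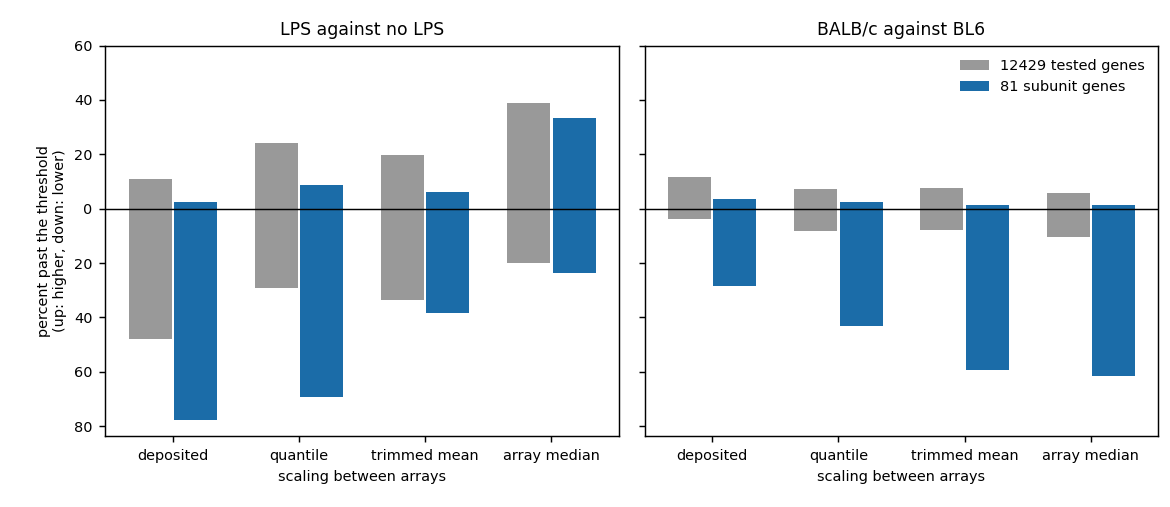
Percent of tested genes past the threshold (vertical axis; bars up, higher; bars down, lower) under 4 scalings between arrays (horizontal axis), for all 12429 tested genes (grey) and the 81 subunit genes (blue). In the LPS comparison (left) the blue and grey bars draw near each other with arrays centred on their medians (23.5% and 19.9% lower); in the strain comparison (right) the share lower in BALB/c is larger among the subunit genes under each scaling.

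The retinoid comparisons asked what RA and the receptor antagonist did over both LPS states and strains. For RA against no retinoid no subunit gene was called by limma (1 of 81 at an unadjusted p under 0.05), beside 0% of all 12429 genes at the deposited scaling (1024 at that level). The median relative change was -0.01. The smallest p belonged to Ndufa4 (0.81 ± 0.30, adjusted p = 0.501 in limma), Cox6b2 (-0.60 ± 0.27), Ndufa12 (0.37 ± 0.19) and Cox7a2l (-0.24 ± 0.12), none past the threshold. Ndufa4 was higher with RA than without retinoid in each strain and LPS state, as its values above show.

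For Ro against no retinoid 3 subunit genes were higher at the deposited scaling (3.7%, beside 14.1% of genes) and none lower (0%, beside 4.36%; 7 of 81 had an unadjusted p under 0.05 in limma in either direction). Ndufa4 had a relative change of 0.84 ± 0.30 (adjusted p = 0.033, limma) and rose at the deposited and quantile scalings (adjusted p = 0.0455 in the latter), but did not pass with arrays centred on their medians, nor without control BL6, Ro BL6, control with LPS BL6 or Ro with LPS BL6. Ndufb1 (0.38 ± 0.19) and Atp5g1 (0.24 ± 0.15) passed at the deposited scaling only. Cell type markers also changed with Ro: 3 of 9 macrophage markers fell (list median -1.38), namely Mrc1 (-2.08 ± 0.40), Mertk (-1.53 ± 0.26) and Cd14 (-1.22 ± 0.18), 4 of 13 dendritic cell markers rose (list median 0.67), led by Zbtb46 (1.74 ± 0.31), and the granulocyte gene Mmp8 fell (-2.52 ± 0.30), 1 of 9 tested. The summed macrophage markers were 46329 to 46895 without retinoid and 45244 to 45861 with Ro in cells without LPS, and 34672 to 37300 and 11571 to 14167 in cells with LPS; their part in the Ro results was not tested. The median relative change of the 81 genes was -0.15. After quantile normalization 1 was higher (1.23%, beside 7.61%). With arrays centred on their medians none was higher (0%, beside 4.78%) and 5 were lower (6.17%, beside 9.1%): Cox8c, Atp5mpl, Ndufs3, Cox8a and Sdhb.

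Within the cultures with LPS, Ro against control gave 1 subunit gene lower under all 3 scalings (1.23%, beside 5.51%). The count was 3 after quantile normalization (3.7%, beside 9.04%), 8 with the trimmed mean (9.88%, beside 9%) and 12 with arrays centred on their medians (14.8%, beside 11.9%), among them Cycs, Uqcr10 and Ndufs3, with relative changes of -1.05 ± 0.30, -0.88 ± 0.20 and -0.74 ± 0.19. The gene lower under all 3 was Cox7c, a small complex IV subunit, whose chosen probe set is dim: 80.97 and 117 in control with LPS (BALB/c, BL6) and 26.3 and 42.1 in Ro with LPS. The relative change was -1.49 ± 0.29 (adjusted p = 0.0171, limma), and the call was lost without Ro with LPS BALB/c or control with LPS BL6. Uqcrfs1 rose from 2540 and 3590 to 4849 and 4469 (0.33 ± 0.19) and Atp5a1 from 4195 and 2304 to 5838 and 3823 (0.31 ± 0.14), both at the deposited and quantile scalings (2.47% of the subunit genes, beside 10.9% of all) and not with arrays centred on their medians. Neither compound gave a called subunit gene without LPS (0 of 81 in either direction; for RA 2 and for Ro 2 at an unadjusted p under 0.05), beside 0.113% of genes lower and 0.0322% higher for RA and 1.21% and 1.48% for Ro. RA and Ro compared directly, at their different doses, differed in Cox6b2 (-1.08 ± 0.27 for RA minus Ro, adjusted p = 0.00704 in limma), 1.23% of the subunit genes beside 7.09% of all genes lower with RA under all 3 scalings. Its signals were 24.4, 64.3, 0.873 and 4.58 with RA and 81.6, 137, 33.6 and 37.7 with Ro. The call under all 3 scalings was lost without any 1 of the arrays except control with LPS BALB/c and control BL6, and its signals with LPS and RA lie below the array medians. In the other direction no subunit gene was higher with RA than with Ro at the deposited scaling. After quantile normalization 4 were (4.94%, beside 8.46%), with the trimmed mean 4 (4.94%, beside 8.05%) and with arrays centred on their medians 5 (6.17%, beside 9.53%). Ndufa5 (0.64 ± 0.20), Ndufs3 (0.48 ± 0.15), Ndufc1 (0.43 ± 0.15) and the dim Cox6a2 (0.96 ± 0.26) passed at each of these 3, and Sdhb (0.34 ± 0.13) with arrays centred on their medians.

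Other genes of the pathway were read from lists, with calls at the deposited and quantile scalings (29% of all genes lower and 11% higher with LPS). Of 17 genes of the TCA cycle and pyruvate entry, 11 fell with LPS and 0 rose (median relative change -0.44), led by Idh3a (-1.89 ± 0.19), a subunit of isocitrate dehydrogenase, Fh1, fumarase (-1.86 ± 0.22), and Suclg2 (-1.67 ± 0.21), a succinyl-CoA ligase subunit. Of 42 assembly factors of the complexes, 17 fell and 3 rose (median -0.25): Ndufaf4 of complex I (-1.76 ± 0.28) and Sco2 (-1.25 ± 0.14) and Cox16 (-1.23 ± 0.15) of complex IV were lowest, while Cox17, a copper chaperone (1.39 ± 0.11), Tmem70 (1.00 ± 0.19) and Ttc19 (0.88 ± 0.18) rose. Of 76 mitochondrial ribosomal protein genes, 45 fell and 4 rose (median -0.42), and of 22 import genes 10 fell and 0 rose (median -0.15), with Timm8a1 lowest (-2.52 ± 0.21). Of 21 genes of mitochondrial transcription, DNA replication and their regulators, 8 fell and 1, the GABP subunit gene Gabpb1, rose (1.63 ± 0.23). Among the 8 were Lrpprc (-1.79 ± 0.20), which stabilises mitochondrial transcripts, the mitochondrial DNA helicase Twnk (-1.62 ± 0.24) and the coactivator Ppargc1b (-1.52 ± 0.32). Of 13 tested genes on a list of inner membrane carriers and Vdac channels of the outer membrane, 3 fell and 1 rose (median 0.27). The ADP/ATP carrier Slc25a5 was at -0.57 ± 0.09 and the citrate carrier Slc25a1 at 0.95 ± 0.12. Higd1a, a factor linked to complex IV outside the rule, rose (1.43 ± 0.22), and Higd2a fell (-0.41 ± 0.13).

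Between the strains the same lists gave fewer calls, with 3.85% of all genes lower in BALB/c and 7.15% higher at both scalings. Of 76 mitochondrial ribosomal protein genes 9 were lower and 1 higher (median -0.32), led by Mrpl20 (-1.16 ± 0.14). Of 42 assembly factors 5 were lower and 2 higher (median -0.18). Of 17 TCA cycle genes 1 was lower, Mpc1 of the pyruvate carrier (-1.13 ± 0.12), and 4 were higher (median 0.03), including Dld (0.75 ± 0.16) and Cs (0.46 ± 0.11). Of 22 import genes 1 was lower and 1 higher. Of the 13 tested carriers and Vdac channels 0 were lower and 3 higher, with Slc25a10 highest (1.26 ± 0.13). Of the 21 genes of mitochondrial transcription, DNA replication and their regulators none passed.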

How the data were processed

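Messenger RNA of 12 mouse cultures was measured on 12 Affymetrix arrays. The deposited intensity values are linear signals per probe set made by the authors with MAS5, per the submitters' processing notes; the scaling target is not given in the sources used here. Of 45101 probe sets, 932 were annotated to several genes, 9160 to none and 64 were controls. The gene identifiers of 34741 of 34945 single-gene probe sets were found in RefSeq, whose symbols were then used. Signals were used as log2(signal + 16). A gene was tested if its probe set exceeded its own array's median on at least 2 of 12 arrays. limma 3.58.1 in R 4.3.3 (eBayes with an intensity trend, threshold 0.05 after Benjamini-Hochberg adjustment over all tested genes) was fitted on all 12 arrays. Strain was a block throughout, because the replicate number marks the strain; deviations of same-numbered arrays correlated at r = 0.304 to 0.699 across genes over 15 pairs of conditions. Quantile normalization, centring on array medians and a common trimmed mean (2 percent trimmed at each end, chosen after seeing the data) were compared with the deposited scaling, as were other pseudocounts, filters, fits and left-out arrays. The code was tested on simulated data. The number of arrays limits the precision. The members and gene lists were chosen with earlier results of these data known. Genes named with values were, by a written rule, the members of largest relative change past the threshold in each complex and direction, the members of smallest p elsewhere, the core and isoform genes, and up to 3 genes per list and direction. Uqcr10, Cox5b, Cox7c and the other genes given beside these were chosen after their values were seen.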

Additional observations from a re-analysis of the deposited data

Results flagged for a closer look

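Each of the 52 named genes was looked at separately on the 6 arrays without and the 6 arrays with LPS, 104 groups in all, for 1 array far from the other 5. Chance alone marks about 1 in 20 groups, and 3 of the 104 were marked. The complex IV paralog gene AA467197 was lowest without LPS in RA BALB/c, at a signal of 653.068, where the others lay between 2200.9 and 4089. The complex IV subunit gene Cox5b was lowest without LPS in control BALB/c, at 6155.91, where the others lay between 7255.95 and 7846.27. Ndufa4 was lowest with LPS in control BL6, at 338.006, where the others lay between 1022.96 and 1919.11.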

How the results depend on the processing

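The scaling between arrays moved the counts of called subunit genes most, and the cause was not tested. With arrays centred on their medians, the LPS counts were 19 lower (63 as deposited) and 27 higher (2), Ro 0 higher (3) and 5 lower (0), RA against Ro 6 (1), strain 51 called (26) and 50 lower in BALB/c (23), and LPS lower 6 without retinoid (42), 14 in RA (57) and 6 in Ro (36). With the trimmed mean they were 31, 5, 0 higher with Ro (beside 7.68% of all genes), 5, 49 and 48. LPS lower was then 22 without retinoid (27.2%, beside 27.5% of all genes), 30 in RA (37%, beside 18.9%) and 16 in Ro (19.8%, beside 17.4%). After quantile normalization LPS higher was 7, Ro higher 1, RA against Ro 5 and strain lower 35. Without the filter, LPS higher was 1, Ro higher 1, strain called 15 and strain lower 13; with the filter on all 12 arrays LPS higher was 1. Without the intensity trend, Ro higher was 1, strain called 14, strain lower 12 and LPS lower in Ro 23. The mean of probe sets gave 2 for RA against Ro, and the 4 arrays of the comparison alone gave 37 for LPS in RA. With no replicate block, so ignoring the pairing by strain, LPS higher was 0, Ro higher 0, and LPS lower 26 without retinoid, 32 in RA and 18 in Ro. Leaving out each array in turn gave 57 to 63 for LPS lower, 0 to 2 for LPS higher, 0 to 3 for Ro higher, 1 to 4 for RA against Ro, 10 to 30 for strain called, 9 to 29 for strain lower, and 25 to 43, 24 to 57 and 12 to 39 for LPS lower without retinoid, in RA and in Ro. LPS higher was 0 without control with LPS BALB/c or control BL6. Apart from the scalings, the share of all genes was not counted for the alternatives in this paragraph. RA against no retinoid and the interactions had 0 calls under every alternative run, and pseudocounts of 1 and 64 moved none of these counts by more than 1.5 times.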

Other observations

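The 3 probe sets of Uqcr10, a small subunit of complex III, gave different sizes of the strain difference. The brightest, with a mean signal of 2276, had a relative difference of -0.58 (BALB/c minus BL6), and the dimmer ones, with mean signals of 582.5 and 346.3, had -3.07 and -4.46. Their relative LPS changes were -0.19, 0.27 and 0.48.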
